A study of Mus musculus with 21 samples.

Results

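The 37 genes of the mouse mitochondrial genome were followed in RNA libraries of oocytes and granulosa cells, in 3 classes: 13 protein-coding genes, 2 rRNAs and 22 tRNAs. They were chosen as every row placed on the mitochondrial chromosome, 37 of 55335 gene identifiers, a rule that reads only the chromosome. The 12 oocyte libraries came from 3 Young, 2 Aged, 2 Aged + Unsorted, 3 Aged + LRP1high and 2 Aged + LRP1low replicates, and the 9 granulosa cell libraries from 1, 2, 1, 3 and 2. All mice were of the outbred ICR stock, Young at 6 to 8 weeks and Aged at 18 months, and the transplanted groups were Aged mice sampled 3 weeks after human umbilical cord mesenchymal stem cells had been placed under the ovarian capsule. The cells were given unsorted or as the fraction high or low in LRP1, a receptor of the low-density lipoprotein receptor family. The labels name biological replicates without saying which mice, or how many cells, each library holds. Levels are FPKM, fragments adjusted for gene length and for the library total. Levels of genes are set side by side below, with limits for the short tRNA genes and for genes with near-identical nuclear copies.

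Mitochondrial DNA is transcribed from both strands into long precursors. In these, tRNAs lie between most of the mRNAs and rRNAs, and cutting at the tRNA ends releases the pieces. The mRNAs then receive short poly(A) tails, with mt-Nd6 as the known exception, and encode core subunits of the respiratory chain, while the rRNAs and tRNAs serve the ribosomes of the organelle. Oocytes hold a very large store of mitochondria, which the embryo inherits, and granulosa cells feed the oocyte with metabolites. By complex, 7 of the 13 protein-coding genes (mt-Nd1 to mt-Nd6 and mt-Nd4l) belong to NADH dehydrogenase, complex I. A further 3 (mt-Co1, mt-Co2, mt-Co3) belong to cytochrome c oxidase, complex IV, and 2 (mt-Atp6, mt-Atp8) to ATP synthase, with mt-Cytb for complex III. On the annotation 12 of these 13, both rRNAs and 14 of the 22 tRNAs lie on the plus strand. Of neighbouring genes, mt-Atp8 and mt-Atp6 overlap by 43 bases and mt-Nd5 and mt-Nd6 by 14 on opposite strands, and reads there cannot be told apart.

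The tRNAs on which the results turn are mt-Tr (arginine), mt-Tg (glycine), mt-Tk (lysine) and mt-Tl1 (leucine), which passed the test in some comparison, and mt-Ts1 (serine), which departed from the other tRNAs. Their GENCODE M21 sequences (GRCm38) follow from 5′ to 3′ in DNA letters, with the anticodon in capitals, taken as the middle of a 7-base loop at the best-scoring place for a paired stem with T before and a purine after the anticodon. mt-Tl1 did not reach the full score, and mt-Tk had 2 places with the same score, of which the one nearest the usual distance from the 3′ end was taken.
mt-Tr: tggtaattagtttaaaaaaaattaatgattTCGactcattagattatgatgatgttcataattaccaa
mt-Tg: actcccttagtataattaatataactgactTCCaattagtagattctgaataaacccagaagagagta
mt-Tk: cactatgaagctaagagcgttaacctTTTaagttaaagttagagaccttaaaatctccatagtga
mt-Tl1: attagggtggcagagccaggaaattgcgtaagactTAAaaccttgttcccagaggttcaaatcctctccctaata
mt-Ts1: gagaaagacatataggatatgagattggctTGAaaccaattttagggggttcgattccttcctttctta
mt-Tr occupies chrM:9808-9875 on the plus strand, between mt-Nd3 and mt-Nd4l, and mt-Tg chrM:9391-9458, just before mt-Nd3. mt-Tk lies at chrM:7700-7764 and mt-Tl1 at chrM:2676-2750, both on the plus strand, and mt-Ts1 at chrM:6870-6938 on the minus strand, overlapping the end of mt-Co1 by 3 bases. mt-Tr holds a run of 8 A, the longest run of a single base in any of the 22 tRNAs. mt-Th has 6 and the others have 3 to 5. All 22 tRNA genes are 59 to 75 bases long, shorter than the fragments that the library protocol selected, so a fragment over a tRNA reaches into its neighbours.

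Some libraries stood apart in ways that touch every comparison. Aligned sequence ranged from 0.278 to 3.40 gigabases in oocyte and from 0.335 to 1.49 gigabases in granulosa cell libraries. Among oocyte libraries, the median FPKM of 10 oocyte markers was 0.892 in Young replicate 1, 11.6 in Aged replicate 1, and 5.02 and 7.77 in both Aged + LRP1low libraries, against 84.9 to 1001 in the other 8. In granulosa cell libraries the summed FPKM of 10 granulosa markers was 1992 in Young and 571 in an Aged + LRP1high library, and 1.08 and 1.14 in both Aged libraries, where 5 of the 10 were at 0. The library labelled granulosa Aged + Unsorted carried a summed oocyte marker FPKM of 11740 against 23.6 for the granulosa markers, which goes against its label. Fewer cells of a type and less RNA per cell cannot be told apart in these samples. Repeat-like rows led by Gm10800 held 0.000941% to 97.0% of TPM, and FPKM is relative to a total that includes them.

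The share that mitochondrial genes took depended on the measure. Their share of aligned bases averaged 0.747% ± 0.465 (SD, n = 3) in Young oocytes, 2.48% ± 2.21 (n = 2) in Aged and 0.811% ± 0.281 (n = 2) in Aged + Unsorted. It was 0.286% ± 0.107 (n = 3) in Aged + LRP1high and 0.749% ± 0.0306 (n = 2) in Aged + LRP1low. Aged + LRP1high held the lowest of these means, and its 3 libraries, from 0.189% to 0.400%, overlapped those of Young. For granulosa cells the share reached 10.5% in the Young library and 3.29% in Aged + Unsorted, and it was 1.99% ± 0.605 (n = 2) in Aged, 1.44% ± 0.888 (n = 3) in Aged + LRP1high and 1.44% ± 1.57 (n = 2) in Aged + LRP1low. Over all groups the median share was 0.749% in the 12 oocyte libraries and 2.41% in the 9 granulosa cell libraries, with overlapping ranges. TPM counts a molecule once whatever its length, and by TPM the share was 19.5% in granulosa Young and 4.77% and 3.14% in granulosa Aged, and 4.13% and 16% in Aged oocytes. With the repeat-like rows and the nuclear copies of mitochondrial genes (described below) left out of the total, it was 23.8% in granulosa Young. It was 80.2% and 73.7% in granulosa Aged, so the order of these groups turned. Among oocyte libraries the Young ones ran from 0.994% to 24.7% on that basis, the Aged ones were at 8.1% and 20.5%, and the Aged + LRP1high ones ran from 0.716% to 1.09%. Which total is used thus decides how Young and Aged granulosa cells compare.

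**Figure D1:**
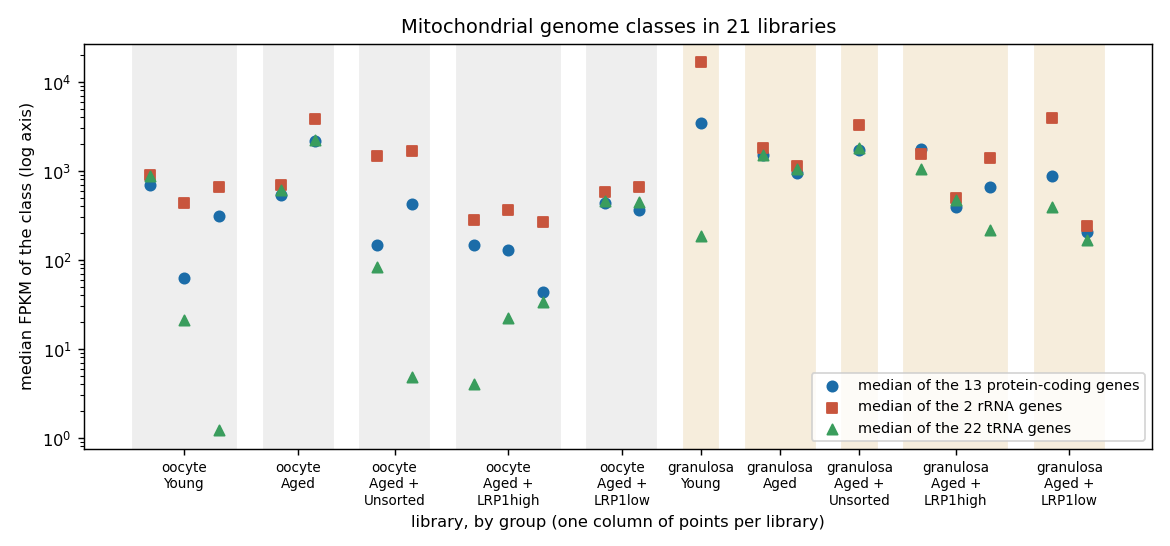
Median FPKM (log axis) of the 13 protein-coding genes (circles), 2 rRNAs (squares) and 22 tRNAs (triangles) in each library, by group (grey oocyte, tan granulosa). The 3 classes lie close together in both Aged groups and in oocyte Aged + LRP1low, and the tRNA median drops to 1.22 in a Young oocyte library.

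The order of the 3 classes differed between libraries. The rRNA median exceeded the protein-coding median in 20 of the 21 libraries, by 1.17 to 10.1 times, and was 0.896 of it in granulosa Aged + LRP1high replicate 1. The tRNA median ran from 0.00393 to 1.26 of the protein-coding median. By group it was 1.26, 0.336 and 0.00393 of it in the Young oocyte libraries and 1.12 and 1.00 in the Aged. It was 0.573 and 0.0113 in Aged + Unsorted oocytes, 0.0274, 0.174 and 0.761 in Aged + LRP1high, and 1.06 and 1.25 in Aged + LRP1low. Both Aged and both Aged + LRP1low oocyte libraries thus had tRNA rows as high as mRNA rows, and all 5 Aged + Unsorted and Aged + LRP1high libraries had lower ratios.

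For the granulosa libraries this ratio was 0.0531 in Young and 1.07 in Aged + Unsorted, with 1.00 and 1.09 in Aged, 0.596, 1.20 and 0.328 in Aged + LRP1high, and 0.446 and 0.815 in Aged + LRP1low. The spread over the 37 genes went with it, as the plot of ratio against spread shows. The coefficient of variation of FPKM was 33.1% and 38.7% in Aged oocytes and 38.3% and 38.9% in Aged + LRP1low. It was 121% to 203% in Aged + LRP1high, 171% and 173% in Aged + Unsorted, and 37.4%, 157% and 199% in Young oocytes. Oocyte markers were low in most of the oocyte libraries with a spread under 40%, but Aged replicate 2, at 33.1%, had a marker median of 716. Repeat-like rows held 19.6% to 88.3% of TPM in the oocyte libraries with a spread under 40%, and 0.000941% to 3.17% in the others. Granulosa cell libraries did not separate in this way. Spreads of 113% and 138% there went with shares of 68.5% and 66.8%, and 40.5% in Aged + Unsorted with 25.9%. The parts of cell content and of the repeat-like rows in the profile were not tested.

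**Figure D2:**
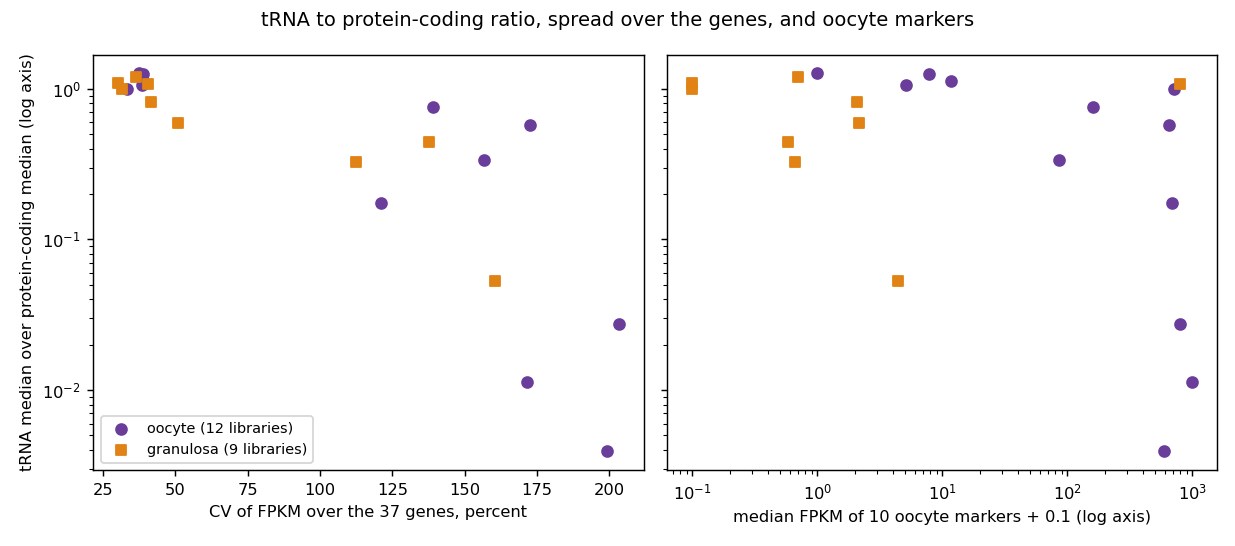
Ratio of the tRNA to the protein-coding median FPKM (log axis) against the coefficient of variation over the 37 genes (left, percent) and against the median FPKM of 10 oocyte markers plus 0.1 (right, log axis), with 1 point per library. Libraries with ratios of 0.815 to 1.26 have spreads of 30.3% to 41.5%, and a granulosa library at an oocyte marker median of 800 is the one labelled Aged + Unsorted.

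mt-Rnr1, the small-subunit rRNA, was at 894, 440.5 and 550.4 FPKM in Young oocytes, 692 and 3463 in Aged, 1139 and 1088 in Aged + Unsorted, 217, 332 and 207 in Aged + LRP1high and 593 and 666 in Aged + LRP1low. mt-Rnr2, the large-subunit rRNA, was at 905, 430.0 and 752 in Young, then 712 and 4101 in Aged, 1817 and 2269 in Aged + Unsorted, 339.7, 388 and 319 in Aged + LRP1high and 561 and 659.6 in Aged + LRP1low. Both were lower in every Aged + LRP1high library than in any other oocyte library. In granulosa cells mt-Rnr1 was at 14745 FPKM in Young, then 1691 and 1042 in Aged, 2807 in Aged + Unsorted, 1305, 511 and 1349 in Aged + LRP1high and 3546 and 239.9 in Aged + LRP1low. mt-Rnr2 there was at 18372 in Young, then 1916 and 1203 in Aged, 3717 in Aged + Unsorted, 1825, 483 and 1424 in Aged + LRP1high and 4263 and 238 in Aged + LRP1low. The Young granulosa library was the highest of all 21, without a replicate. mt-Rnr2 over mt-Rnr1, which share a precursor, stayed between 0.945 and 2.09 in the 21 libraries.

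Among protein-coding genes the leading transcript changed with the library. mt-Cytb and mt-Nd1 each led in 6 libraries, mt-Co2 and mt-Atp6 in 4 each, and mt-Nd2 in 1. mt-Cytb, the cytochrome b of complex III, was at 909, 62.2 and 1958 FPKM in Young oocytes, 834 and 2597 in Aged, 199.7 and 644 in Aged + Unsorted, 1175, 277 and 416 in Aged + LRP1high and 620.2 and 568 in Aged + LRP1low. Its Aged + LRP1high libraries overlapped those of every other group. mt-Co1, the catalytic subunit of complex IV, was at 855, 70.8 and 636 in Young, then 587 and 2808 in Aged, 246 and 664 in Aged + Unsorted, 312, 205 and 43.5 in Aged + LRP1high and 589 and 446 in Aged + LRP1low. Its Aged + LRP1high libraries lay below both Aged and both Aged + LRP1low libraries. In granulosa cells mt-Cytb was at 5029 FPKM in Young, then 1569 and 955 in Aged, 2405 in Aged + Unsorted, 2067, 511 and 393 in Aged + LRP1high and 1014 and 229.5 in Aged + LRP1low. mt-Co1 was at 8754 FPKM in Young, then 1762 and 1048 in Aged, 2345 in Aged + Unsorted, 1747, 496 and 664 in Aged + LRP1high and 1290.1 and 205 in Aged + LRP1low in granulosa cells. Young was the highest granulosa library for both genes and Aged + LRP1low replicate 2 the lowest.

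mt-Nd6, the complex I subunit encoded on the other strand, was at 898, 42.5 and 168 FPKM in Young oocytes, 638 and 2311 in Aged, 223 and 312 in Aged + Unsorted, 120.3, 128 and 39.3 in Aged + LRP1high and 601 and 512 in Aged + LRP1low. Its level over that of its neighbour mt-Nd5 was 0.995 and 0.864 in Aged oocytes and 3.38, 1.81 and 0.914 in Aged + LRP1high. The ratio also reached 2.73 in a Young and 2.81 in an Aged + Unsorted oocyte library. In granulosa cells mt-Nd6 was at 686 FPKM in Young, then 1594 and 1132 in Aged, 2175 in Aged + Unsorted, 1115, 478 and 529 in Aged + LRP1high and 525 and 203 in Aged + LRP1low. In the Young library this stood against 8754 for mt-Co1. The complex IV subunit mt-Co2 led in granulosa Young at 13507, in 2 of the 3 Aged + LRP1high libraries at 3246 and 2553, and in an Aged + LRP1low library at 5916. mt-Nd3 was the lowest protein-coding row in 14 of 21 libraries. It was also 0.245 to 0.978 times its near-identical nuclear copy, Gm28438, and the part of that copy in its rank was not tested.

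**Figure D3:**
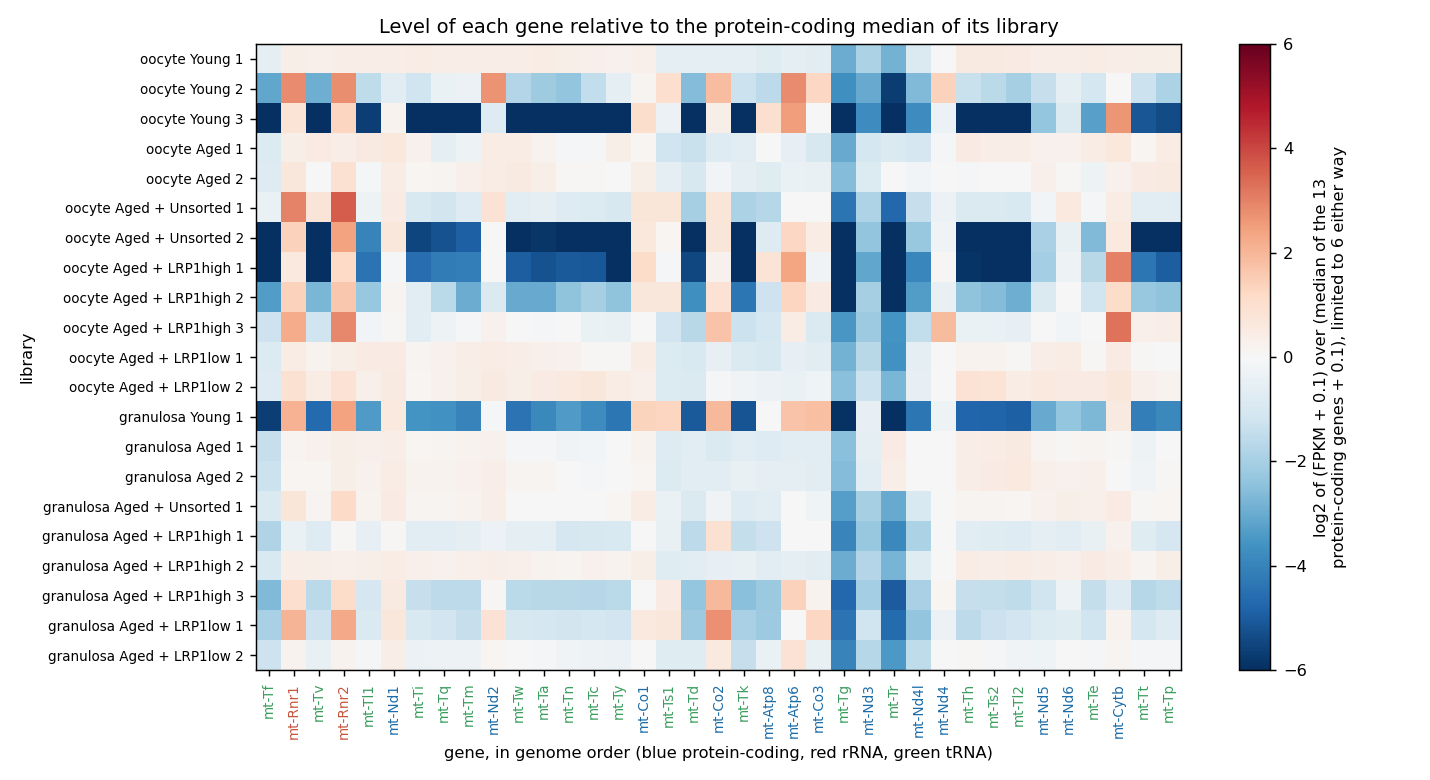
Colours give the log2 level of each gene relative to the protein-coding median of the same library, with 37 genes in genome order (x) and 21 libraries (y). Aged and oocyte Aged + LRP1low libraries are pale along most of the genome, mt-Tg is low in every library, and mt-Tr lies closest to the protein-coding median in the 4 Aged libraries.

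The 5 tRNAs with the highest median over the oocyte libraries were mt-Ts1 at 238 FPKM, mt-Tv at 134, mt-Te at 102, mt-Ti at 79.2 and mt-Tl1 at 77.9. mt-Tv, the valine tRNA between the rRNAs, was at 857, 8.01 and 0.665 in Young oocytes, 761 and 2170.5 in Aged, 248 and 4.98 in Aged + Unsorted, 1.11, 18.8 and 18.7 in Aged + LRP1high and 504 and 481 in Aged + LRP1low. mt-Te, the glutamate tRNA, was at 929, 29.5 and 31.9 in Young, then 729 and 1791 in Aged, 138 and 66.5 in Aged + Unsorted, 46.4, 55.3 and 43 in Aged + LRP1high and 457 and 512 in Aged + LRP1low. Both tRNAs were lower in every Aged + LRP1high and Aged + Unsorted library than in any Aged library. In granulosa cells mt-Tv was at 136 FPKM in Young, then 1829 and 1023 in Aged, 1915 in Aged + Unsorted, 1027, 506 and 219.7 in Aged + LRP1high and 369 and 151 in Aged + LRP1low. mt-Te was at 542 FPKM in Young, then 1684 and 1172 in Aged, 2076 in Aged + Unsorted, 1264, 549 and 248 in Aged + LRP1high and 385 and 196 in Aged + LRP1low in granulosa cells. For both, the library labelled Aged + Unsorted was the highest and Young lay below both Aged libraries.

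mt-Ti, the isoleucine tRNA, was at 956, 26.7 and 3.2 FPKM in Young oocytes, 643 and 2386 in Aged, 78.9 and 9.21 in Aged + Unsorted, 6.01, 79.5 and 28.3 in Aged + LRP1high and 493 and 395 in Aged + LRP1low. mt-Tl1 was at 917, 21.6 and 6.15 in Young, then 783 and 2102 in Aged, 117 and 26.5 in Aged + Unsorted, 6.80, 26.6 and 38.9 in Aged + LRP1high and 609 and 445 in Aged + LRP1low. Both were again lower in every Aged + Unsorted and Aged + LRP1high library than in any Aged library. mt-Ti was at 284 FPKM in Young, then 1645 and 1118 in Aged, 1887 in Aged + Unsorted, 1114, 486 and 252 in Aged + LRP1high and 466 and 163 in Aged + LRP1low in granulosa cells. There mt-Tl1 was at 331 in Young, then 1881 and 1153 in Aged, 1980.4 in Aged + Unsorted, 1257, 494 and 331 in Aged + LRP1high and 479.6 and 189.7 in Aged + LRP1low.

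mt-Ts1 overlaps the end of mt-Co1 on the opposite strand, and its level stayed near that of mt-Co1. mt-Ts1 was at 461, 124 and 244 FPKM in Young oocytes, 232 and 1451 in Aged, 246 and 454 in Aged + Unsorted, 136, 205 and 19.4 in Aged + LRP1high and 249.5 and 201 in Aged + LRP1low. Its neighbour mt-Td, the aspartate tRNA, was at 481, 10.1 and 0.571 in Young, then 216 and 1135 in Aged, 37.2 and 6.34 in Aged + Unsorted, 3.18, 9.72 and 13.7 in Aged + LRP1high and 232 and 197 in Aged + LRP1low. In a Young oocyte library mt-Ts1 was thus 427 times mt-Td, and in granulosa Young, at 8585 against 106, it was 81.2 times mt-Td. In the 4 Aged libraries that ratio was 0.874 to 1.28. Libraries of other groups also fell in this range, with 0.959 in Young oocyte replicate 1 and 1.07 and 1.02 in Aged + LRP1low oocytes. In granulosa cells it was 0.955 in Aged + LRP1high replicate 2 and 1.00 in Aged + LRP1low replicate 2, so the ratio did not separate the Aged libraries. mt-Co1 over mt-Ts1 stayed between 0.570 and 2.61 in all 21 libraries. In granulosa cells mt-Ts1 was at 8585 FPKM in Young, then 876 and 547 in Aged, 1309 in Aged + Unsorted, 1267, 234 and 926 in Aged + LRP1high and 1401 and 122 in Aged + LRP1low. It was not stated whether strand was used in counting.

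Several protein-coding rows have a near-identical nuclear copy, so their levels are uncertain. On chromosome 1 of GRCm38, 7 annotated rows between 24611535 and 24616197 have 97.2% to 100% of their 25-base words in the mitochondrial genes mt-Co1, mt-Co2, mt-Atp6, mt-Atp8, mt-Co3, mt-Nd3, mt-Nd4l and mt-Nd4. Of 11 nuclear rows that share at least 20% of their words with the mitochondrial genome, the 5 highest by median FPKM were Gm10925 at 675, Gm28438 at 408, Gm28661 at 395, Gm29216 at 376 and Gm28437 at 321. mt-Co2 was 0.922 to 1.06 times Gm28661, and mt-Atp6 was 0.785 to 1.03 times Gm10925, in the 21 libraries. mt-Nd3 ranged more widely, from 0.245 to 0.978 times Gm28438. The 5 tRNAs between mt-Co1 and mt-Nd4l had a median of 0.261 to 1.06 times that of the other 17. Only annotated rows were searched, so unannotated nuclear copies of these tRNAs would not have been found. Adding the copy to its member changed the number of members passing the test in 1 of the comparisons below, from 6 to 7.

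mt-Tg was low in every library. It was at 86.7, 4.76 and 0.475 FPKM in Young oocytes, 65.1 and 363 in Aged, 6.83 and 0.815 in Aged + Unsorted, 0.0887, 1.78 and 3.81 in Aged + LRP1high and 61.5 and 63.1 in Aged + LRP1low. Against the tRNA median of its library it stood at 0.0221 to 0.390, below the median in each of the 21. In granulosa cells it was at 56.9 in Young, then 264 and 157 in Aged, 171 in Aged + Unsorted, 113, 49.8 and 25.3 in Aged + LRP1high and 40.2 and 12.5 in Aged + LRP1low.

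mt-Tr set the Aged libraries apart in both cell types. In oocytes it was at 95.6, 1.10 and 0.916 FPKM in Young, then 292 and 2198 in Aged, 5.48 and 2.2 in Aged + Unsorted, 1.25, 0.787 and 3.57 in Aged + LRP1high and 34.7 and 54.0 in Aged + LRP1low. In granulosa cells it was at 18.7 in Young, then 2106 and 1246 in Aged, 209 in Aged + Unsorted, 121, 56.1 and 20.5 in Aged + LRP1high and 35.8 and 18.7 in Aged + LRP1low. No library of another group reached the lowest Aged library of its cell type. Among the 22 tRNAs mt-Tr was the lowest or next to lowest in 14 of the 17 libraries that are not Aged, and in none of the 4 Aged libraries.

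The distance of mt-Tr from its neighbours was then compared, a ratio chosen after its levels had been seen and given without a test. mt-Nd4l, the complex I subunit gene that follows it, was at 374, 9.91 and 22.6 FPKM in Young oocytes, 268 and 1963 in Aged, 56.2 and 86.3 in Aged + Unsorted, 9.71, 12.6 and 15.5 in Aged + LRP1high and 298 and 257 in Aged + LRP1low. In granulosa cells mt-Nd4l was at 173 FPKM in Young, then 1513 and 929 in Aged, 895 in Aged + Unsorted, 473, 234 and 172 in Aged + LRP1high and 168 and 70.5 in Aged + LRP1low. There the 2 Aged libraries were the highest. mt-Tr over mt-Nd4l was 1.09 and 1.12 in Aged oocytes and 0.0255 to 0.256 in the other 10 oocyte libraries. It was 1.39 and 1.34 in Aged granulosa cells and 0.108 to 0.265 in the other 7 granulosa cell libraries. Libraries with a flat profile but another label were among the low ones, at 0.256 in Young oocyte replicate 1 and 0.116 and 0.211 in Aged + LRP1low oocytes. mt-Nd4l shares 98.9% of its words with nuclear rows, and mt-Tr shares none with an annotated nuclear row. Only annotated rows were searched. mt-Nd4l lay above its chromosome 1 copy, Gm10222, in all Aged libraries. The copy was at 240 and 1320 FPKM in Aged oocytes and at 1024 and 625 in Aged granulosa cells. Elsewhere mt-Nd4l exceeded it only in Young oocyte replicate 3 (copy at 20.4) and Aged + Unsorted oocyte replicate 2 (copy at 83.7). The part of the copy in the ratio was not tested. The chromosome 1 copy of mt-Nd4l ends at 24612700 and that of mt-Nd3 starts at 24612775. The stretch between them was not read, so a copy of mt-Tr there would not have been found.

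**Figure D4:**
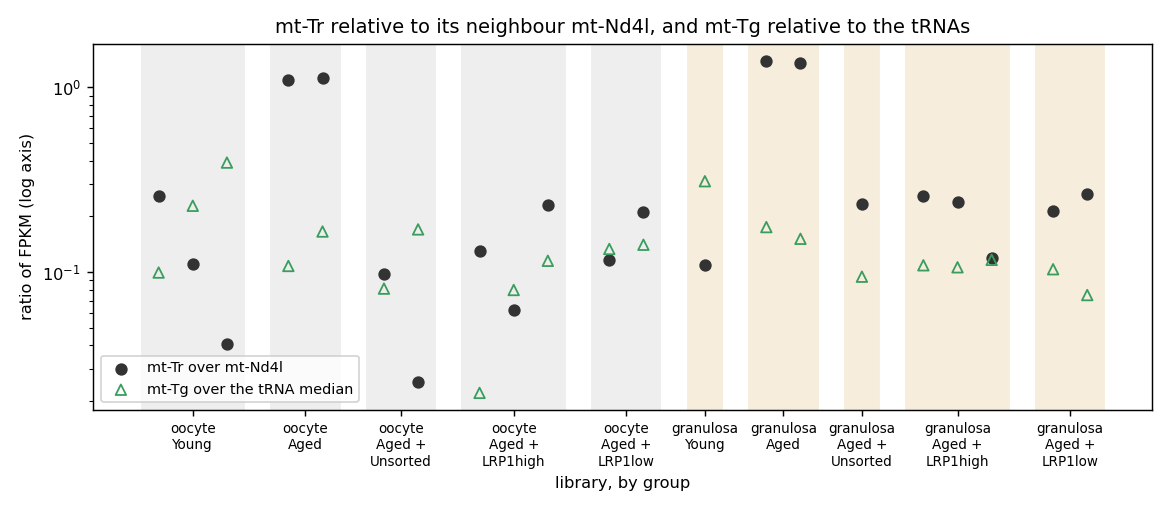
Filled circles give the FPKM of mt-Tr over that of mt-Nd4l and open triangles that of mt-Tg over the tRNA median, in each library by group (ratio on a log axis). The 4 Aged libraries lie between 1.09 and 1.39 for mt-Tr and the other 17 at or below 0.265, while mt-Tg does not separate the groups.

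The test of Aged against Young oocytes asks how the classes move with age. The median change (log2 of FPKM + 1, Aged minus Young) was 1.36 for the rRNAs, 1.92 for the protein-coding genes and 5.05 for the tRNAs, against 0.94 for all 28004 rows tested. Complex I genes had a median of 2.72 and complex IV genes of 1.3. In limma, 0 of the 37 passed a fold change over 1.5 with a Benjamini-Hochberg adjusted p under 0.05, beside 0.0964% of all rows, and 25 had an unadjusted p under 0.05, all with higher values in Aged, beside 8.43% of all rows. The smallest adjusted p was 0.0885, for mt-Tr, with a change of 6.78 ± 1.52 (SE). mt-Tr and mt-Nd3 alone did not overlap between the groups, 2 of 37 beside 11% of all rows. For mt-Nd3 the nearest libraries were Young replicate 1 at 185 FPKM and Aged replicate 1 at 261. Its nuclear copy Gm28438 was at 754 and 408 in these, so the copy did overlap between the groups.

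The absence of calls depended on which libraries were kept. Young replicate 1 had an oocyte marker sum of 11.4, against 1340 and 9690 in the other Young libraries. Without it, 13 members were called higher (2.72% of all rows): 10 tRNAs with mt-Nd3, mt-Nd4l and mt-Nd5. Without Aged replicate 1, 1 was called, mt-Rnr2, beside 3.78% of all rows. Without the 4 oocyte libraries lowest in oocyte markers, which leaves a single Aged library assumed to vary like the others, 8 were called higher (7.5% of all rows), among them both rRNAs, mt-Nd3, mt-Nd4l, mt-Nd5 and mt-Tr.

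After LRP1high cells, mitochondrial rows of Aged oocytes had lower values, and 1 of them passed the test. The median change against Aged was -2.47 for rRNAs, -3.63 for protein-coding genes and -6.11 for tRNAs, against -1.05 for all rows. The 3 Aged + LRP1high libraries lay below both Aged libraries for 35 of the 37, beside 12.4% of all rows, with mt-Atp6 and mt-Cytb as the exceptions. In limma 35 of the 37 had an unadjusted p under 0.05, all with lower values, beside 9.94% of all rows. A single member, mt-Tr, passed the test and fell by 8.25 ± 1.52 (adjusted p = 0.0439), beside 0.753% of all rows called lower. The next were mt-Nd2 at -4.16 (adjusted p = 0.0543) and mt-Nd4l at -5.76 (adjusted p = 0.0662).

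No Aged + LRP1high library could be left out without losing that call, with adjusted p from 0.171 to 0.197 for mt-Tr. Without Aged replicate 1 the count was 6 (4.56% of all rows), without Aged replicate 2 it was 3 (38.7%), and without the 4 libraries low in oocyte markers it was 9 (7.77%), and mt-Tr was called in each. Each of these settings leaves a single Aged library, whose spread is assumed to be that of the other groups. The summed oocyte markers were 3507 to 9246 in Aged + LRP1high and 153 and 9051 in Aged. Repeat-like rows held 0.05%, 1.73% and 1.11% of TPM in Aged + LRP1high and 48.6% and 19.6% in Aged, without overlap. The part of the markers or of these rows in the difference was not tested. Relative to the median of the 37 members, the change of mt-Tr was -2.60 with an adjusted p of 0.272.

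The comparisons of Aged + Unsorted and Aged + LRP1low share the same 2 Aged oocyte libraries with those above. In Aged + Unsorted against Aged, the median change was -0.11 for rRNAs, -2.12 for protein-coding genes and -5.50 for tRNAs, against -0.86 for all rows. The rRNA median turned to 0.03 with TPM and to 1.10 without Aged replicate 2, so its direction is not settled. mt-Rnr2 was 0.25 ± 0.84 above Aged, the only member with a positive change. limma called 0 of 37 (0% of all rows), with 25 at an unadjusted p under 0.05, all lower, beside 7.04% of all rows. Groups did not overlap for 30 of 37, all lower, beside 11.3% of all rows. Repeat-like rows held 3.17% and 0.0111% of TPM in Aged + Unsorted against 48.6% and 19.6% in Aged, and their part was not tested. Without Aged replicate 2, mt-Rnr2 was called higher, 1 of 37 beside 1.38% of all rows. Without the 4 libraries low in oocyte markers, 4 were called lower: mt-Tr, mt-Nd4l, mt-Nd5 and mt-Te, beside 7.25% of all rows.

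After LRP1low cells the 3 class medians lay close together in oocytes. The median change against Aged was -1.39 for rRNAs, -1.39 for protein-coding genes and -1.34 for tRNAs, while all rows had a median of 0.68. limma called 0 of 37, beside 0.075% of all rows called lower, and 1 (mt-Tr, -4.18 ± 1.67) had an unadjusted p under 0.05, beside 0.953% of all rows. Groups did not overlap for 27 of 37, lower in each, beside 9.55% of all rows. With median-of-ratios scaling the medians were -0.03 for rRNAs, -0.03 for protein-coding genes and 0.02 for tRNAs, so the direction of none of the classes is settled. Without Aged replicate 1, both rRNAs and mt-Co2 were called lower, beside 1.8% of all rows. Both LRP1low libraries are among those low in oocyte markers, with sums of 53.0 and 166, so no value without them exists.

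**Figure D5:**
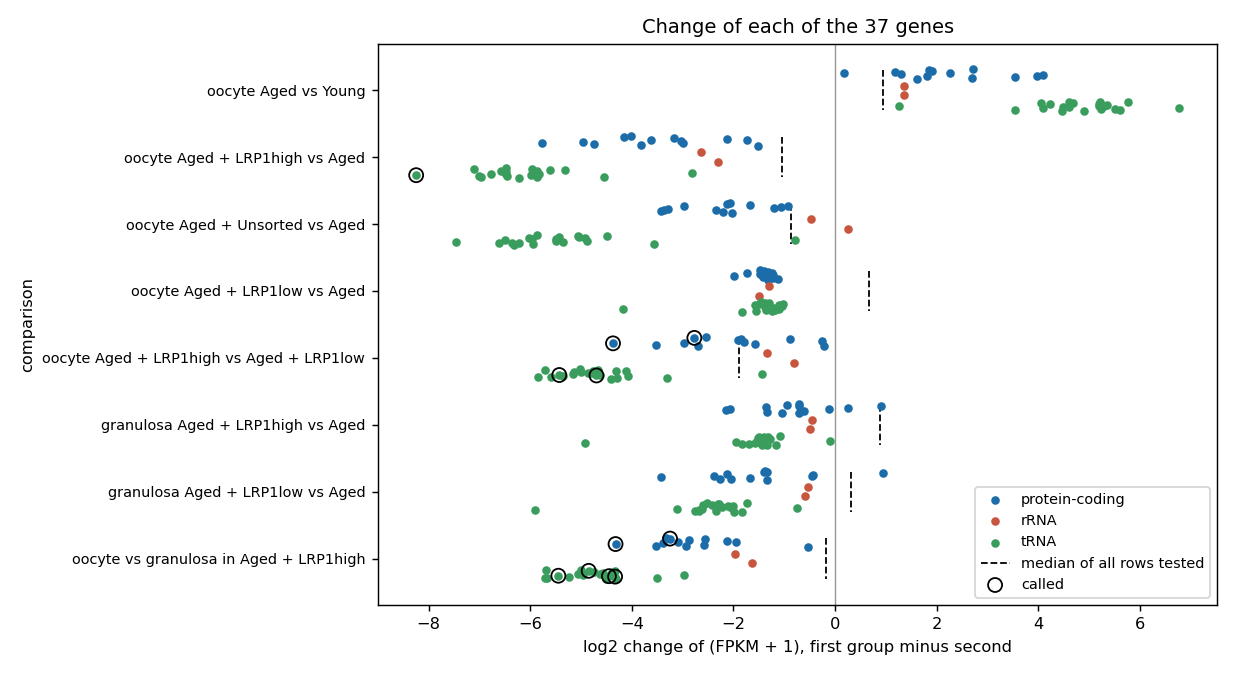
Each point is the log2 change of FPKM + 1 for a member in a comparison (protein-coding blue, rRNA red, tRNA green), black rings mark calls and dashed bars the median of all rows tested. tRNA points lie farthest from 0 in Aged against Young and after LRP1high or Unsorted cells, and the 3 class medians lie close together in oocytes, not in granulosa cells, after LRP1low cells.

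Set directly against Aged + LRP1low, Aged + LRP1high oocytes had 4 members called lower, beside 24.8% of all rows, so the share among members was below that of all rows. They were mt-Nd4l, whose levels stand above, mt-Nd2, mt-Tg and mt-Tk. mt-Nd2, a complex I subunit, was at 926, 406 and 179.6 in Young oocytes, 726 and 2999 in Aged, 272 and 423 in Aged + Unsorted, 147, 70.2 and 52.9 in Aged + LRP1high and 602 and 526 in Aged + LRP1low (FPKM). It fell by 2.77 ± 0.87 (adjusted p = 0.0431). mt-Tk was at 461, 25.3 and 1.52 in Young oocytes, 332 and 1464 in Aged, 39.8 and 4.93 in Aged + Unsorted, 0.911, 6.27 and 17.9 in Aged + LRP1high and 241 and 314 in Aged + LRP1low. It fell by 5.43 ± 1.82 (adjusted p = 0.0493). mt-Nd4l fell by 4.37 ± 1.31 (adjusted p = 0.0390) and mt-Tg by 4.70 ± 1.49 (adjusted p = 0.0439). The median over all rows was -1.89, against -1.08 for rRNAs, -1.90 for protein-coding genes and -4.79 for tRNAs. At an unadjusted p under 0.05, 22 members were lower, beside 45.9% of all rows, and groups did not overlap for 33, beside 62.6%. None of the 4 calls remained when any of the 5 libraries was left out. Oocyte markers were higher in Aged + LRP1high by a median of 5.89, with 3 of 10 called, and 4 of 9 granulosa markers were called lower. Repeat-like rows held 0.05% to 1.73% of TPM in Aged + LRP1high and 42.4% and 63.6% in Aged + LRP1low, and their part was not tested.

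In granulosa cells, Aged + LRP1high against Aged gave 0 calls in limma (0% of all rows), with 3 members at an unadjusted p under 0.05, all lower, beside 0.515% of all rows. The median change was -0.48 for rRNAs, -0.71 for protein-coding genes and -1.42 for tRNAs, against 0.89 for all 13002 rows. Without Aged + LRP1high replicate 2 the rRNA median was 0.04. mt-Tr had the lowest value, -4.93 ± 0.80, with an adjusted p of 0.458 in limma. Groups did not overlap for 16 of 37, all lower, beside 1.38% of all rows. mt-Co2 stood at 0.91 and mt-Atp6 at 0.26 above Aged. Summed luteal markers (6 genes) were 1789, 7.37 and 87.6 in these Aged + LRP1high libraries against 0.742 and 2.07 in Aged, and granulosa markers 58.3, 5.30 and 571 against 1.14 and 1.08. Stromal markers (6 genes) were 127, 3.29 and 72.5 against 2.33 and 2.82, and the part of these cells in the comparison was not tested.

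Aged + LRP1low against Aged in granulosa cells also gave 0 calls in limma (0% of all rows), with 21 members at an unadjusted p under 0.05, all lower, beside 0.738% of all rows. The median change was -0.56 for rRNAs, -1.40 for protein-coding genes and -2.32 for tRNAs, against 0.31 for all rows. The rRNA median turned to 0.75 with quantile normalization and to 1.45 without Aged + LRP1low replicate 2. mt-Tr had -5.91 ± 0.88 (adjusted p = 0.582). Groups did not overlap for 27 of 37, lower in each, beside 6.95% of all rows. Summed luteal markers were 72.7 and 5660 in these Aged + LRP1low libraries against 0.742 and 2.07 in Aged, and their part was not tested. Both granulosa comparisons share the Aged libraries. Young and Aged + Unsorted granulosa cells had 1 library each, so their values have no replicate check.

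The difference between the cell types in these changes was tested as an interaction. For Aged + LRP1high against Aged, oocyte minus granulosa, limma called 0 of 37 (0% of all rows), with 9 at an unadjusted p under 0.05 beside 16% of all rows, and the median difference was -2.0 for rRNAs, -2.89 for protein-coding genes and -4.68 for tRNAs. The 9 included mt-Nd2 at -3.21 ± 1.31 and mt-Tk at -5.23 ± 2.22. For Aged + LRP1low against Aged it called 0 (0% of all rows), with 0 members at an unadjusted p under 0.05 beside 6.41% of all rows. The difference for mt-Tr was -3.32 ± 1.90 (adjusted p = 0.327) in the first and 1.73 ± 2.08 (adjusted p = 0.950) in the second.

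Oocytes and granulosa cells were compared within Aged + LRP1high, the group with 3 libraries of each. Oocyte rows were lower by a median of 1.80 for rRNAs, 2.94 for protein-coding genes and 4.79 for tRNAs, against 0.18 for all 21767 rows. In limma 6 members were called lower, beside 0.175% of all rows: mt-Nd4l (-4.32 ± 1.03, adjusted p = 0.0205), mt-Nd2 (-3.25 ± 0.83, adjusted p = 0.0297), mt-Tk (-5.45 ± 1.41, adjusted p = 0.0315), mt-Tg, mt-Tl1 and mt-Tr. In granulosa cells mt-Nd2 was at 3347 FPKM in Young, then 1835 and 1244 in Aged, 2201 in Aged + Unsorted, 1362, 513 and 693 in Aged + LRP1high and 1598 and 225 in Aged + LRP1low. mt-Tk was at 95.2 FPKM in Young, then 933 and 703 in Aged, 981 in Aged + Unsorted, 640.0, 291 and 116 in Aged + LRP1high and 223 and 77.7 in Aged + LRP1low in granulosa cells. Within Aged + LRP1high, every granulosa cell library lay above every oocyte library for mt-Nd4l, mt-Nd2 and mt-Tk. At an unadjusted p under 0.05, 33 were lower, beside 2.94% of all rows. Groups did not overlap for 34 of 37, beside 20.1% of all rows lower, and mt-Cytb, mt-Atp6 and mt-Atp8 overlapped.

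These calls depended on single libraries. Leaving out Aged + LRP1high oocyte replicate 1 or 2, or granulosa replicate 1 or 2, left 0. Without granulosa replicate 3, 2 were called (mt-Tk and mt-Nd4l, beside 0.0586% of all rows), and without oocyte replicate 3, 8 were called, beside 0.106%. With the difference averaged over Aged, Aged + LRP1high and Aged + LRP1low, 0 were called. All 10 oocyte markers were called higher in these oocyte libraries, with a median change of 8.00, and the 3 granulosa cell libraries differed in summed granulosa markers from 5.30 to 571.

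Nuclear genes that copy, transcribe and process the mitochondrial genome were read from the same libraries. Tfam, which packages mitochondrial DNA and starts its transcription, ran from 0 to 5.68 FPKM in oocyte libraries (median 2.78) and from 0 to 10.6 in granulosa cell libraries (median 0.400). Polrmt, the mitochondrial RNA polymerase, ran from 0 to 15.3 in oocytes (median 4.30), and Tfb2m, its initiation factor, from 0 to 9.49 (median 3.46). The helicase Twnk ran from 0 to 31.1 (median 7.03) and Lrpprc, which stabilises mitochondrial mRNA, from 0.184 to 21.4 (median 6.64). None of these 5 was called in any of the 8 comparisons.

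Of 9 genes of replication and the nucleoid, 9 of transcription, 23 of RNA processing and stability and 7 regulators of biogenesis, limma called none in Aged against Young, in the comparisons with Aged, or in granulosa cells. At an unadjusted p under 0.05 there were 2, higher, in Aged against Young oocytes and 3, lower, in Aged + LRP1high against Aged, of 9, 8, 21 and 6 tested in the lists, beside 8.43% and 9.94% of all rows. In Aged + LRP1high against Aged + LRP1low, 3 were called lower, beside the 24.8% of all rows: Top1mt, a mitochondrial topoisomerase (-3.04), Gabpa, a transcription factor for nuclear genes of the respiratory chain (-3.07), and Mrm3, a methyltransferase of mitochondrial rRNA (-2.60). In oocytes against granulosa cells, 4 of 21 processing genes were called higher, beside 5.07% of all rows. They were Angel2 (4.79), Nsun4, an rRNA methyltransferase (4.74), Mtpap, the mitochondrial poly(A) polymerase (3.77), and Trnt1, which adds the CCA end to tRNAs (3.27). Mtpap was at 30.6, 30.3 and 18.2 FPKM in the Aged + LRP1high oocyte libraries and at 1.95, 0.759 and 0.431 in the granulosa cell libraries, opposite in direction to the 37 mitochondrial genes. Repeat-like rows held 82.5%, 96.4% and 68.5% of TPM in these granulosa cell libraries. In the oocyte libraries they held 0.05%, 1.73% and 1.11%, and their part in the nuclear gene levels was not tested.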

How the data were processed

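RNA libraries of mouse oocytes and granulosa cells were read from 21 gene tables, 1 per library. Per the labels and the submitters' processing notes, the authors aligned reads with HISAT2 (version 2.2.1) and estimated abundance with StringTie (version 1.3.3b). The deposited coverage per base, FPKM and TPM came from that step, and FPKM and TPM were used as deposited. The deposited coverage signal times gene length gave aligned bases. The notes list mm9, but 54577 of 55335 identifiers, and all 37 members, have GENCODE M21 (GRCm38) coordinates. Whether counting used strand was not given in the sources used here. Rows of 1 symbol and identifier listed more than once (4 to 21 rows per table) were summed.

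limma (version 3.58.1, R 4.3.3) was fitted to log2(FPKM + 1) over all rows with a mean FPKM of at least 1, with 1 coefficient per group. A call was a fold change over 1.5 with a Benjamini-Hochberg adjusted p under 0.05 over all rows. Changes are on the log2(FPKM + 1) scale, which understates those of low rows. Scripts were tested on simulated data. Nuclear rows were called copies when at least 20% of their 25-base words lay in mitochondrial genes. Repeat-like rows numbered 10. Values in every library were given for both rRNAs, mt-Co1, mt-Cytb, mt-Nd6, the 5 tRNAs with the highest oocyte median, and up to 10 called members with the largest change whose groups did not overlap. Named nuclear genes were Tfam, Polrmt, Tfb2m, Twnk, Lrpprc, up to 3 called listed genes per comparison and the 5 copies with the highest median. mt-Td, mt-Tg as a pattern, mt-Co2, mt-Atp6, mt-Nd3, Trnt1 and the ratio of mt-Tr to mt-Nd4l were taken up after values were seen. The members and gene lists were chosen with earlier results of these data known. Alternatives were the pseudocount, the filter, TPM, quantile and median-of-ratios scaling, a trended robust fit, a replicate block, leaving out each library, leaving out low-marker libraries, adding the nuclear copy, and centring on the members. p-values measure the spread between these libraries, which may be partly technical.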

Additional observations from a re-analysis of the deposited data

How the results depend on the processing

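The number of members called depended on the setting in most comparisons, and the cause was not tested. Leaving out 1 library at a time (which can leave 1 in a group, assumed to vary like the others) gave 0 to 13 in Aged against Young oocytes, where 0 were called. It gave 0 to 6 in Aged + LRP1high against Aged (1 called), 0 to 1 in Aged + Unsorted against Aged (0), 0 to 3 in Aged + LRP1low against Aged (0), 0 to 0 in Aged + LRP1high against Aged + LRP1low (4) and 0 to 8 in oocytes against granulosa cells (6). Without the 4 libraries lowest in oocyte markers (like the copy and centring settings, added once the data had been seen) the counts were 8 in Aged against Young, 9 in Aged + LRP1high against Aged and 4 in Aged + Unsorted against Aged. In Aged + LRP1high against Aged, pseudocount 10 and no filter each gave 2, and pseudocount 0.1, quantile normalization, median-of-ratios scaling, the trended robust fit and centring on the members each gave 0. The adjusted p of mt-Tr there ran from 0.00570 to 0.457. In Aged + LRP1high against Aged + LRP1low, pseudocount 0.1 and centring gave 0, pseudocount 10 gave 1, TPM and the trended robust fit gave 2, and median-of-ratios scaling gave 30 beside 48.3% of all rows. In oocytes against granulosa cells, pseudocounts of 0.1 and 10 each gave 1 lower, no filter, TPM, the trended robust fit and averaging over 3 groups gave 0, quantile normalization gave 15 (1.08% of all rows) and median-of-ratios scaling 37 (13.7%). Centring there called 1 in the other direction, mt-Cytb higher, beside 71% of all rows called higher. Centring gave 1, mt-Tr, in granulosa Aged + LRP1low against Aged. Granulosa Aged + LRP1high against Aged had 0 in every setting run. Centring, which measures a member against the others, turned the direction of mt-Nd2 (1.56) in Aged + LRP1high against Aged + LRP1low, and of mt-Nd2 (1.22), mt-Tg (0.020), mt-Tr (0.14) and mt-Nd4l (0.15) in oocytes against granulosa cells. Outside centring, 7 of 342 class medians changed sign, among them the rRNA median of Aged against Young (-0.05 with median-of-ratios scaling).

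Replicate numbers are shared between groups, but the deviations of same-numbered libraries correlated from -0.436 to 0.441 in oocytes and from -0.0761 to 0.256 in granulosa cells, so the numbers were not taken as pairs. With the replicate block, 0 members were called in Aged + LRP1high against Aged, 0 in Aged + LRP1high against Aged + LRP1low and 9 in oocytes against granulosa cells.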
